A study of Mus musculus with 2 samples.

Results

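The 8 genes described here, *Il33*, *Pdgfa*, *Vegfa*, *Fgf1*, *Gdf15*, *Lif*, *Bdnf* and *Igf1*, encode secreted or released trophic factors and cytokines and were taken by name from the 31053 gene rows of a scRNA-seq experiment on the oligodendrocyte lineage of the mouse optic nerve. All 8 rows were found, 6 held at least 1 UMI and *Lif* and *Bdnf* held none. The uninjured library came from 5 optic nerves of wild-type 129S1/SvlmJ mice, both sexes pooled, and the injured library from the injury site of 5 such nerves 2 weeks after optic nerve crush (ONC), done at 8 weeks of age. Mice were 10 weeks old by the study's methods and 56 days by the labels. Because the label of time since crush stands on both libraries, the uninjured one was told by its title. With 1 library per condition, made from pooled nerves, no difference between conditions has a replicate check, no test was possible, and injury cannot be told apart from the library.

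The authors assigned each barcode to 1 of 3 types: oligodendrocyte progenitors (OPC), oligodendrocytes that have just formed (NFO) or oligodendrocytes. The last type holds all later stages, and the deposited types do not part the small spidery oligodendrocytes that the study names from mature ones. The uninjured library held 58 OPC, 44 NFO and 857 oligodendrocyte barcodes with 171329, 94130 and 4149375 UMIs in all, and the injured library 17, 100 and 293 barcodes with 117597, 351851 and 2302349 UMIs. No barcode was shared between the libraries. The fixed markers followed the types. In both libraries all 5 OPC markers were at least 2-fold higher in OPCs than in oligodendrocytes, and all 7 mature oligodendrocyte markers at least 2-fold lower. The authors typed with *Pdgfra* and *Mag*, which stand on these lists, and with *Fyn*, so the lists are not independent of the types. The 14 macrophage and microglia markers summed to 21.3 to 35.0 CPM (UMIs of a gene per 1e+06 UMIs of its class) over the uninjured types and to 247, 662 and 293 CPM in injured OPCs, NFOs and oligodendrocytes, where 236 of the 293 oligodendrocyte barcodes held at least 1 such UMI. Barcodes with under 0.5% of their UMIs from the nuclear RNA *Malat1* made up 5.60% of uninjured and 45.4% of injured oligodendrocytes, and the median oligodendrocyte barcode had 3060 and 1268 UMIs.

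As background, interleukin 33 (*Il33*) is an IL-1 family cytokine held in the nucleus and released from damaged cells. It signals through the receptor ST2 (*Il1rl1*) with the accessory chain *Il1rap*, and in the CNS oligodendrocytes and astrocytes are known sources. PDGF-A (*Pdgfa*) is the mitogen and survival factor that OPCs sense through *Pdgfra*, and VEGF-A (*Vegfa*) acts mainly on vessels and is made by OPCs under low oxygen. FGF1 (*Fgf1*) binds all FGF receptors, GDF15 (*Gdf15*) is a stress-induced member of the TGF-beta family, LIF (*Lif*) is a gliogenic IL-6 family cytokine, BDNF (*Bdnf*) is a neurotrophin that supports retinal ganglion cells, and IGF1 (*Igf1*) promotes oligodendrocyte survival and, after CNS injury, is made by microglia and macrophages.

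On GRCm38, by the GENCODE vM21 annotation, *Il33* (ENSMUSG00000024810) lies at chr19:29925114-29960718 on the plus strand, *Pdgfa* (ENSMUSG00000025856) at chr5:138976014-138997370 on the minus strand and *Vegfa* (ENSMUSG00000023951) at chr17:46016993-46032369 on the minus strand. *Gdf15* lies at chr8:70629393-70632456, *Lif* at chr11:4257557-4272514, *Bdnf* at chr2:109674700-109727007 and *Igf1* at chr10:87858265-87937042. *Il33*, *Vegfa*, *Gdf15* and *Lif* overlap no other annotated gene, whereas *Pdgfa*, *Bdnf* and *Igf1* each overlap 1 antisense gene. The stretches before the starts of the genes with the clearest differences are shown to place them in the genome. RefSeq gives 2 starts for each of these 3 genes, and both are shown for *Il33* and the farther upstream one for *Pdgfa* and *Vegfa*. The 250 bases before the *Il33* starts are chr19:29924863-29925112 and chr19:29945540-29945789, both on the plus strand. The same window is chr5:138994945-138995194 on the minus strand for *Pdgfa* and chr17:46032378-46032627 on the minus strand for *Vegfa*. Sequences are those of the GRCm38.p6 reference (C57BL/6J, another strain than the mice used), 5′ to 3′ toward the start, and capitals mark a match to any motif searched on both strands.
Il33 first start: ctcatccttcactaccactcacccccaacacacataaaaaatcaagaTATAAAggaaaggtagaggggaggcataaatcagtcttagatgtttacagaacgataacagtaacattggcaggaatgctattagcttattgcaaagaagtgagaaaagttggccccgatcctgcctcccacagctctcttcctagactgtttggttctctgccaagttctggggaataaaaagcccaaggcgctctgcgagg
Il33 second start: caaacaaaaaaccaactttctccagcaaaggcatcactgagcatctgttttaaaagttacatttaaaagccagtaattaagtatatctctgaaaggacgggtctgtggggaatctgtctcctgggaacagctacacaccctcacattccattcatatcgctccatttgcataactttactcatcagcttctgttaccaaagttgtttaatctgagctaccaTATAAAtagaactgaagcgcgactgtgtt
Pdgfa: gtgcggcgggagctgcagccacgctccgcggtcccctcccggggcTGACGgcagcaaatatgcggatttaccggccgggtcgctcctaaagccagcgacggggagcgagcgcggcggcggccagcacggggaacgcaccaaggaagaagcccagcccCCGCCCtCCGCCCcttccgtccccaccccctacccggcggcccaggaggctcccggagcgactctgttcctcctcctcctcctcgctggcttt
Vegfa: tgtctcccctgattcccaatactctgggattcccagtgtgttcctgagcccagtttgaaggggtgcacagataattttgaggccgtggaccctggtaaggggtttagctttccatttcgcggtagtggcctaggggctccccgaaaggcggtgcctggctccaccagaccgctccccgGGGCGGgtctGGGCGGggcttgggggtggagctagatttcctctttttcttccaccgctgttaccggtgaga
The letters TATAAA stood 203 bases before the first and 29 bases before the second *Il33* start, and 12.3% of the 32536 windows of this length held them. The GC box letters GGGCGG were found 2 times each before *Pdgfa* and *Vegfa*, and in 33% of windows, and the letters TGACG (part of a CRE) 1 time before *Pdgfa*, and in 17.9% of windows. The letters TTCNNNGAA (STAT), TGANTCA (AP-1), ACGTG (hypoxia element core) and ACAAAG (SOX) were in none of the 4 windows, against 7.04%, 6.73%, 16.7% and 16.5% of all. GC made up 45.2% and 39.6% of the *Il33* windows, 72.4% of the *Pdgfa* window and 59.2% of the *Vegfa* window (median of all windows 52.4%). UMIs counted at the 3′ end of transcripts do not show which start was used.

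*Il33* was an oligodendrocyte transcript in both libraries and its level was 6.41 times as high in the injured as in the uninjured oligodendrocytes. Uninjured oligodendrocytes held 856 *Il33* UMIs in 236 of 857 barcodes, or 206 CPM (95% Poisson interval 193 to 221), and injured oligodendrocytes 3044 UMIs in 147 of 293 barcodes, or 1322 CPM (1276 to 1370). The 95% interval of the ratio was 5.94 to 6.92. Intervals here and below cover counting error only and not the difference between nerves. The ratio ranked 124th from the top among the 10123 genes with at least 20 UMIs in the oligodendrocytes of both libraries together, whose median ratio was 1.03. Of the 8 genes, 4 had that many UMIs, and *Il33* was the 1 past the fold: 7.72% of all genes tested were at least 2-fold higher and 5.69% at least 2-fold lower in injured oligodendrocytes, and none of the 4 was 2-fold lower.

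OPCs and NFOs held almost no *Il33* in either library. Uninjured OPCs and NFOs held 1 and 0 UMIs, and injured OPCs and NFOs 1 and 3 UMIs. The injured NFO level was 8.53 CPM (1.76 to 24.9), 0.00645 of the injured oligodendrocyte level (interval 0.00133 to 0.0189), and the injured OPC level was 0.00643 of it (0.000163 to 0.0359). In the uninjured library, *Il33* was 6.47-fold higher in oligodendrocytes than in NFOs when the NFO class was set at the floor of 3 UMIs. The exact interval of this ratio has a lower limit of 5.25. An *Il33* UMI was in 1.72% (0.0436 to 9.24) of uninjured and 5.88% (0.149 to 28.7) of injured OPC barcodes (median depth 2290 and 4120 UMIs). In oligodendrocytes the share was 27.5% (24.6 to 30.7) in the uninjured and 50.2% (44.3 to 56) in the injured library, above that in OPCs. The OPC shares rest on 1 barcode in each library, and the part of free RNA in any class was not tested. In the order of levels, injured oligodendrocytes came first and uninjured oligodendrocytes second, with intervals apart from each other and from the rest, and the other 4 classes did not differ beyond their intervals.

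**Figure D1:**
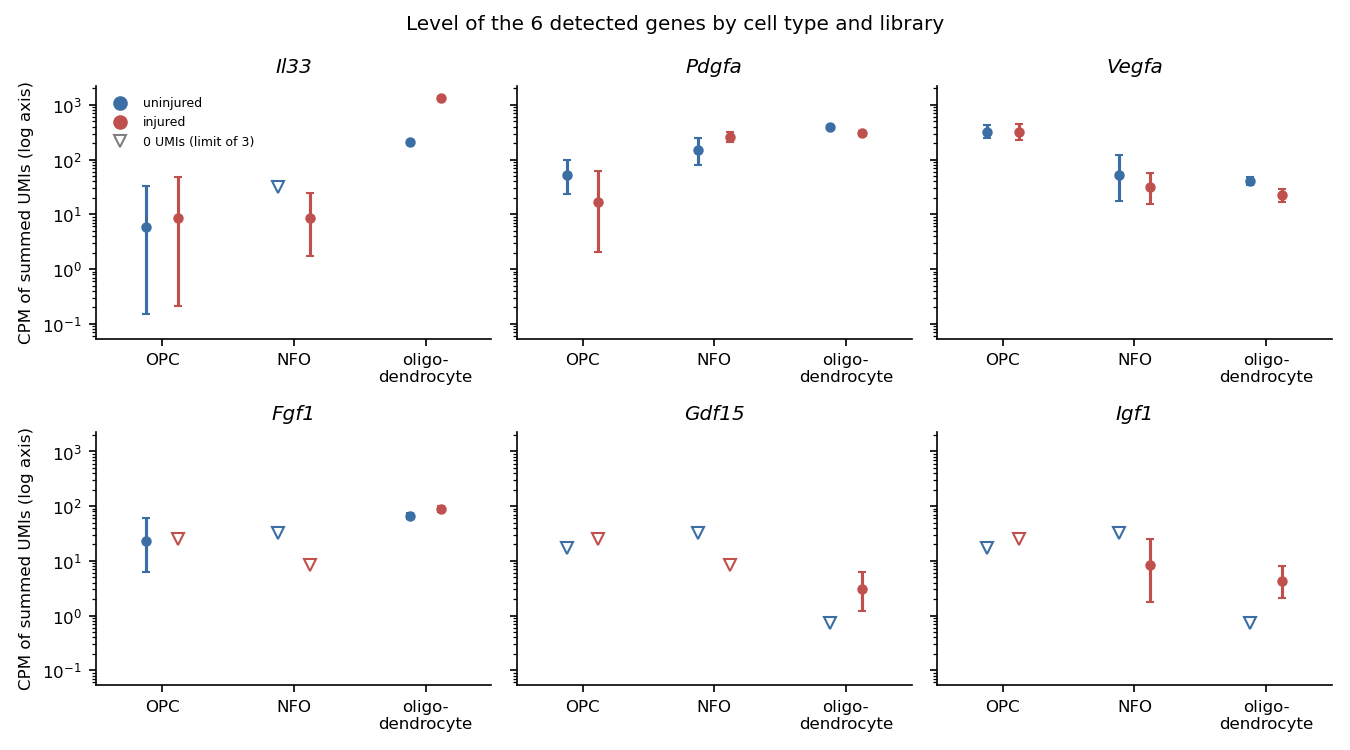
CPM of summed UMIs (y, log axis) of the 6 detected genes by cell type (x) in the uninjured (blue) and injured (red) library; bars are 95% Poisson intervals, and open triangles mark classes with 0 UMIs at the limit of 3 UMIs. *Il33* stands at 206 and 1322 CPM in oligodendrocytes and at 8.53 CPM or less where it is detected elsewhere, *Vegfa* is highest in OPCs (327 and 323 CPM), and *Pdgfa* is at 391 and 309 CPM in oligodendrocytes, where the injured value overlaps that of injured NFOs (264 CPM).

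The *Il33* difference was seen at every depth of barcode. In barcodes under 1000 UMIs the level was 137 CPM in uninjured and 493 CPM in injured oligodendrocytes, a ratio of 3.60 (1.97 to 6.96). From 1000 to under 3000 UMIs the ratio was 3.45 (2.31 to 5.09), and from 3000 to under 8000 UMIs 2.42 (1.80 to 3.21). In barcodes of 8000 UMIs and over it was 6.51 (5.94 to 7.15), from 222 to 1446 CPM. This deepest band held 2893 of the 3044 injured *Il33* UMIs in 84 barcodes, so the summed level of injured oligodendrocytes is mostly theirs, and without the band the ratio was 2.72 (2.23 to 3.32). Within the injured library the 3 shallower bands lay between 491 and 527 CPM, each below the deepest band. *Malat1*-poor barcodes gave a smaller ratio (2.07, interval 1.28 to 3.47) than the others (6.66, 6.17 to 7.20), and without barcodes with 5 or more macrophage UMIs the ratio was 6.29.

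**Figure D2:**
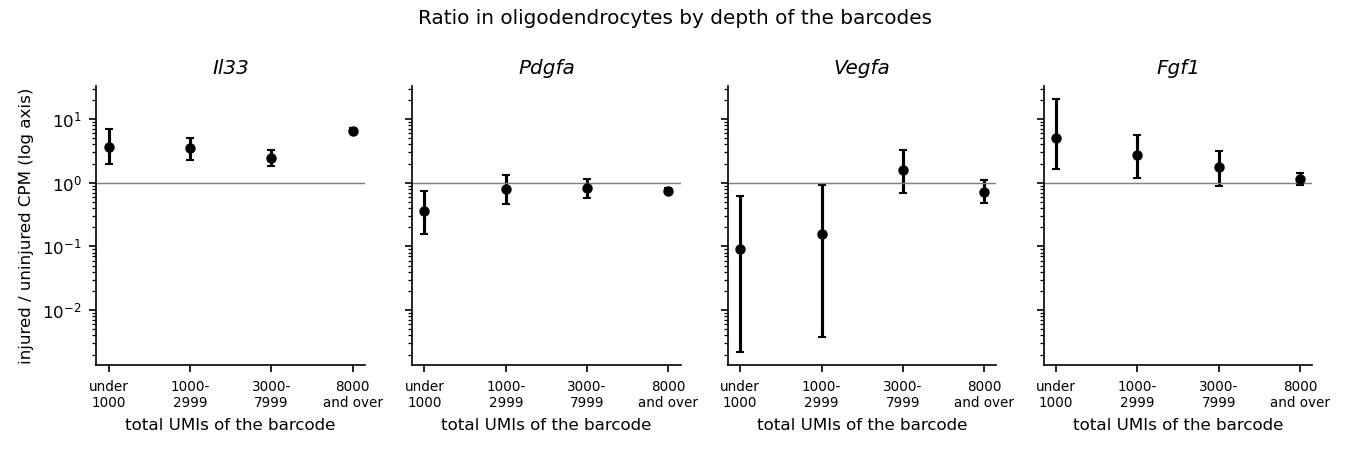
Ratio of injured to uninjured CPM in oligodendrocytes (y, log axis) for *Il33*, *Pdgfa*, *Vegfa* and *Fgf1* by the total UMIs of the barcode (x); points are ratios, bars exact conditional 95% intervals and the line marks 1. *Il33* is above 1 in all 4 bands (2.42 to 6.51), *Pdgfa* below 1 in all 4 (0.353 to 0.831), and *Fgf1* falls toward 1 in the deepest band (1.14).

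Among single deep oligodendrocytes, *Il33* was unevenly held before injury and nearly universal after it. Of the 203 uninjured barcodes of 8000 UMIs and over, 94 held an *Il33* UMI (46.3%, interval 39.3 to 53.4), with a median of 0 UMIs, an upper quartile of 4 and a highest value of 34. Of the 84 injured barcodes, 78 did (92.9%, 85.1 to 97.3), with a lower quartile of 12, a median of 28.5, an upper quartile of 44.25 and a highest value of 125 UMIs. The quartiles do not overlap. The injured barcodes were deeper, and at 8000 UMIs drawn from each, 43.3% (36.4 to 50.5) of uninjured and 91.7% (83.6 to 96.6) of injured barcodes held *Il33*, with a ratio of levels of 5.71 (5.07 to 6.44). At that depth the variance of *Il33* was 5.25 times its mean in the uninjured and 5.53 times in the injured library, against 1.61 and 1.47 for *Pdgfa*, where counting alone gives 1. The 21 uninjured barcodes with most *Il33* held 52.3% of their *Il33* UMIs.

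**Figure D3:**
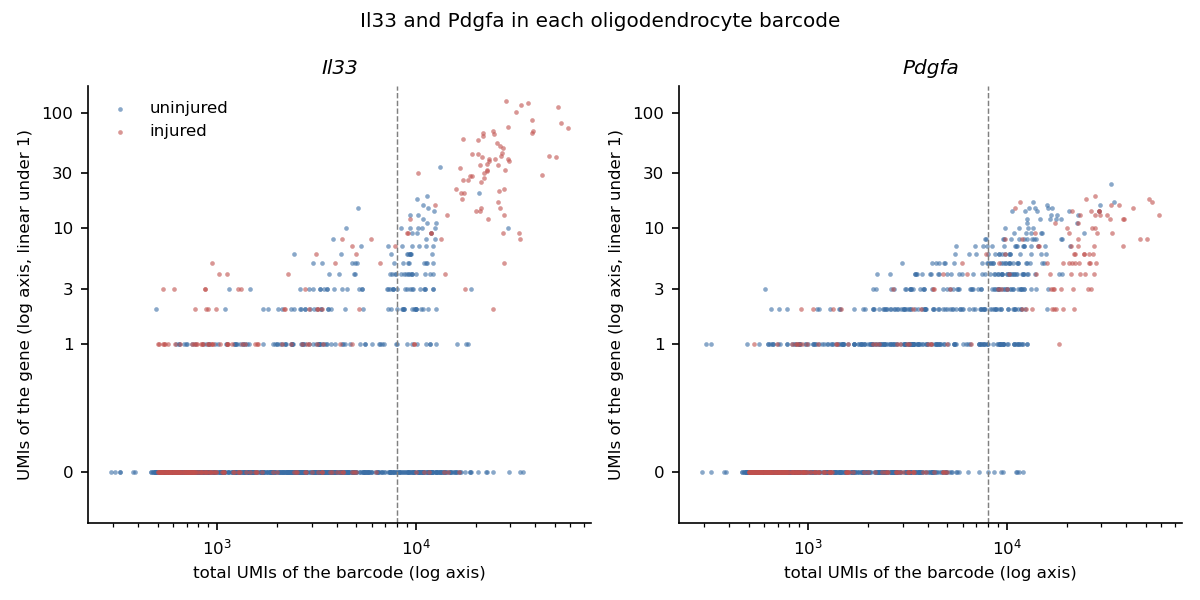
UMIs of *Il33* (left) and *Pdgfa* (right) in each oligodendrocyte barcode (y, log axis that is linear under 1) against its total UMIs (x, log axis), uninjured in blue and injured in red; the dashed line marks 8000 UMIs. Right of the line 94 of 203 uninjured and 78 of 84 injured barcodes hold *Il33*, and 195 of 203 and 84 of 84 hold *Pdgfa*.

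The uninjured deep barcodes with and without an *Il33* UMI also differed in the other genes. Genes in this paragraph other than the 8 were chosen after their values were seen, and the split itself uses *Il33*, so the values are a description. Median depth was 10152.5 UMIs in the 94 barcodes with *Il33* and 11741 in the 109 without. *Pdgfa* was lower in barcodes with *Il33* (289 against 533 CPM, ratio 0.542, interval 0.473 to 0.621), *Vegfa* was higher (40.0 against 18.4 CPM, ratio 2.17, 1.29 to 3.69), and *Fgf1* was 63.3 against 78.6 CPM with an interval that spans 1 (0.584 to 1.10). Nearly all barcodes held *Pdgfa*: 91.5% of those with *Il33* and 100% of those without. Among the 5712 genes with at least 50 UMIs, 0.84% were at least 2-fold higher and 1.23% at least 2-fold lower with *Il33* on CPM plus 10. The 10 highest included *Ptgds*, the prostaglandin D synthase of some mature oligodendrocytes (7648 against 786 CPM, ratio 9.73), *Socs3*, a feedback inhibitor of cytokine signalling (77.0 against 9.21 CPM, ratio 8.36), *Tmem176b* (ratio 6.70) and the transcription factor *Cebpd* (ratio 4.54). The 10 lowest included *S100b* (186 against 1286 CPM, ratio 0.145), *Ldhb* (ratio 0.105) and *Hopx* (ratio 0.230), and the protease *Klk6* was at 437 against 1219 CPM. Of the mature markers, *Mag*, *Mobp* and *Cldn11* had ratios of 0.982, 0.946 and 1.09, while *Apod* had a ratio of 0.511.

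Among deep barcodes with *Il33* only, its level was 527 CPM in the 94 uninjured and 1504 CPM in the 78 injured ones. The ratio was 2.85 (2.60 to 3.13), so both the share of barcodes and the summed level in them were higher. The barcodes compared were chosen by *Il33* itself. Their median depths were 10152.5 and 23000 UMIs, and depth was not matched here. In these barcodes *Pdgfa* was at 289 and 307 CPM (ratio 1.06, 0.920 to 1.22), where all deep barcodes gave a ratio of 0.748. *Ptgds* was at 7648 and 4601 CPM, *S100b* at 186 and 1053 CPM and *Klk6* at 437 and 3631 CPM. These genes were chosen after the uninjured split was seen, where *Ptgds* was high and *S100b* and *Klk6* low with *Il33*. In uninjured deep barcodes without *Il33* they were at 786, 1286 and 1219 CPM. Their directions and sizes here thus depend on that choice and do not hold for all deep barcodes. Only 6 injured barcodes lacked *Il33*, which is too few to describe.

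**Figure D4:**
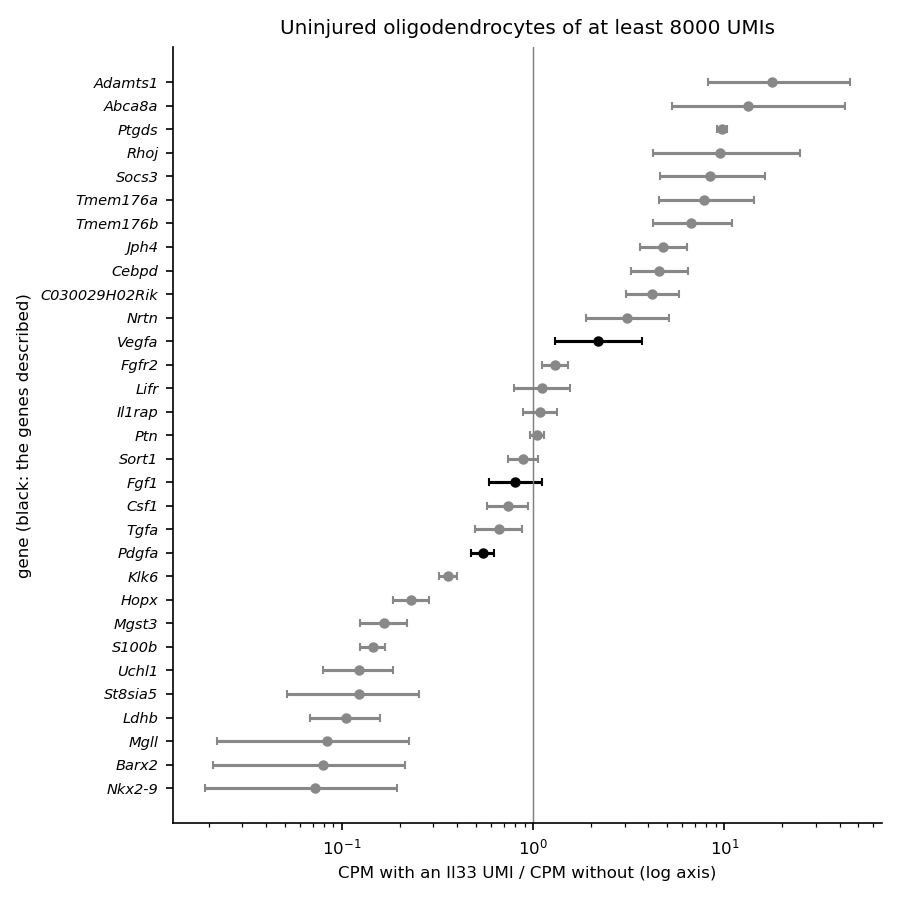
Ratio of CPM between uninjured oligodendrocyte barcodes of at least 8000 UMIs with (94) and without (109) an *Il33* UMI (x, log axis) for 31 genes (y); bars are exact conditional 95% intervals. *Ptgds* and *Socs3* stand at 9.73 and 8.36, *Vegfa* at 2.17, *Pdgfa* at 0.542 and *S100b* at 0.145.

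*Pdgfa* was lowest in OPCs, the cells that carry its receptor, and in uninjured nerve it was higher in oligodendrocytes than in NFOs. Uninjured OPCs, NFOs and oligodendrocytes held 9, 14 and 1621 *Pdgfa* UMIs, or 52.5, 149 and 391 CPM. Injured OPCs, NFOs and oligodendrocytes held 2, 93 and 712 UMIs, or 17.0, 264 and 309 CPM. The uninjured oligodendrocyte level was apart from all others, while the injured oligodendrocyte and NFO levels overlapped in their intervals, as did each lower pair. Against oligodendrocytes of the same library the OPC level had a ratio of 0.134 (0.0614 to 0.256) in uninjured nerve and 0.0550 (0.00665 to 0.199) in the injured library. The NFO level had a ratio of 0.381 (0.208 to 0.641) before and 0.855 (0.681 to 1.06) after ONC. The latter turned above 1 by mean CPM over barcodes (1.16), thinned to 500 UMIs (1.26) and against oligodendrocytes under 8000 UMIs (1.19), and was 0.672 (0.515 to 0.864) without the NFO barcode with most *Pdgfa*.

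After ONC, *Pdgfa* was lower in oligodendrocytes, with a ratio of 0.792 (0.724 to 0.865), and the ratio lay below 1 in each depth band: 0.353, 0.807, 0.831 and 0.748 from the shallowest to the deepest. In the 2 middle bands the interval spans 1. In NFOs the ratio was 1.78 (1.01 to 3.38), on 14 and 93 UMIs. The share of NFO barcodes with *Pdgfa* was 20.5% (9.80 to 35.3) in the uninjured and 28.0% (19.5 to 37.9) in the injured library. In injured NFOs 1 barcode of 29396 UMIs held 26 of the 93 UMIs, and without it the ratio was 1.40 (0.777 to 2.69). Over the alternatives the NFO ratio of *Pdgfa* ranged from 1.17 by mean CPM to 6.30 thinned to 500 UMIs, on 1 uninjured UMI, and was past the fold in 4 of 8. The barcode with 26 *Pdgfa* UMIs held all 5 NFO markers (7008 CPM, against 6692 CPM in the other injured NFOs) and 1 macrophage UMI. Its mature oligodendrocyte markers were at 20580 CPM, against 11500 CPM in the other injured NFOs. Whether it mixed cells was not tested. *Pdgfa* was the 1 of the 8 genes with at least 20 UMIs in NFOs and was not past the fold, where 15.8% of genes were at least 2-fold higher and 6.86% at least 2-fold lower after ONC.

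*Vegfa* had the opposite order over the lineage, with its highest level in OPCs. Uninjured OPCs, NFOs and oligodendrocytes held 56, 5 and 169 UMIs, or 327, 53.1 and 40.7 CPM. Injured OPCs, NFOs and oligodendrocytes held 38, 11 and 51 UMIs, or 323, 31.3 and 22.2 CPM. The OPC levels overlapped and stood apart from the other 4 classes. Against oligodendrocytes the OPC ratio was 8.03 (5.82 to 10.9) in the uninjured and 14.6 (9.33 to 22.6) in the injured library. The NFO ratio was 1.30 (0.418 to 3.10) and 1.41 (0.663 to 2.74), which does not separate these types.

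The OPC level of *Vegfa* rested on few barcodes. In the uninjured library 18 of 58 OPC barcodes held it, and 1 barcode of 2832 UMIs held 23 of the 56 UMIs. In the injured library 7 of 17 held it, and 1 barcode of 16983 UMIs held 31 of the 38 UMIs. The median among barcodes with a *Vegfa* UMI was 1 UMI in both libraries. These top barcodes held 4 and 5 of the 5 OPC markers, and neither held a UMI of the 6 endothelial or 7 fibroblast and pericyte markers. In the uninjured one, mature oligodendrocyte markers were at 5650 CPM, against 2006 CPM in the other OPCs. Its NFO markers were at 3884 against 1347 CPM, and its macrophage markers at 706 against 23.7 CPM, on 2 UMIs. In the injured one these lists were lower than in the other OPCs. Whether either barcode mixed cells was not tested. Without both barcodes the levels were 196 CPM in uninjured and 69.6 CPM in injured OPCs, so the comparison of OPCs between libraries turned from 0.989 (0.637 to 1.52) to 0.355 (0.133 to 0.817). Without the top barcode alone the OPC level was 4.81 times the oligodendrocyte level in the uninjured and 3.14 times in the injured library (1.20 to 6.95). *Vegfa* was the 1 of the 8 genes with at least 20 UMIs in OPCs, where 12.6% of genes were at least 2-fold higher and 8.65% at least 2-fold lower after ONC.

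In oligodendrocytes *Vegfa* was lower after ONC, with a ratio of 0.544 (0.390 to 0.748) on 169 and 51 UMIs. By mean CPM over barcodes (0.314) and thinned to 500 UMIs (0.204, 0.0236 to 0.810) it was past the fold. The difference was not the same across depth. Under 1000 UMIs there were 13 uninjured and 1 injured UMIs and from 1000 to under 3000 UMIs 41 and 1 (ratios 0.0924, 0.00217 to 0.615, and 0.154, 0.00381 to 0.909). From 3000 UMIs on, the intervals span 1 (1.58, 0.682 to 3.26, and 0.727, 0.479 to 1.09), and in deep barcodes thinned to 8000 UMIs the ratio was 0.989. Within uninjured oligodendrocytes the level went from 119 CPM in the shallowest to 27.5 CPM in the deepest band, and the part of free RNA in this was not tested.

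Most *Fgf1* UMIs were found in oligodendrocytes. On GRCm38 the gene (ENSMUSG00000036585) lies at chr18:38838673-38929472 on the minus strand, where the protein-coding *Arhgap26* overlaps it on the opposite strand. Uninjured oligodendrocytes held 274 UMIs in 183 barcodes (66.0 CPM, 58.4 to 74.3) and injured ones 206 UMIs in 100 barcodes (89.5 CPM, 77.7 to 103). Uninjured OPCs held 4 UMIs (23.35 CPM, 6.36 to 59.8), and the interval overlaps that of uninjured oligodendrocytes. Uninjured NFOs, injured OPCs and injured NFOs held none, which allows up to 31.9, 25.5 and 8.53 CPM. With empty classes at the floor of 3 UMIs, *Fgf1* in injured oligodendrocytes was 10.5-fold higher than in NFOs and 3.51-fold higher than in OPCs. The exact intervals of these ratios have lower limits of 8.46 and 2.83. In the uninjured library the value against NFOs was 2.07-fold, with an exact lower limit of 1.67. The ratio of injured to uninjured oligodendrocytes was 1.35 (1.13 to 1.63), not past the fold. It was past the fold by mean CPM over barcodes (2.40), thinned to 500 UMIs (4.11, 2.08 to 8.33) and in barcodes under 8000 UMIs (2.43, 1.66 to 3.53). By depth it was 5.10 (1.67 to 20.9), 2.68 (1.19 to 5.60), 1.74 (0.902 to 3.12) and 1.14 (0.912 to 1.41), so the difference was largest in shallow barcodes and not separable from none in the 2 deepest bands. The share of deep barcodes with an *Fgf1* UMI was 52.2% and 77.4%, and 40.9% (34.1 to 48.0) and 48.8% (37.7 to 60.0) after thinning to 8000 UMIs.

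*Gdf15* was absent from the uninjured library (0 UMIs, which allows up to 0.723 CPM in oligodendrocytes). It held 7 UMIs in 3 injured oligodendrocytes (3.04 CPM, 1.22 to 6.26), 4.20-fold higher against the floor of 3 UMIs. Both *Gdf15* and *Igf1* were under the minimum of 20 UMIs, and the exact intervals of their ratios have lower limits of 2.60 and 4.04. Of the 7 *Gdf15* UMIs, 5 lay in 1 barcode of 14581 UMIs, and 2 of the 3 barcodes held 5 or more macrophage UMIs. *Igf1* was likewise 0 in the uninjured library. It held 10 UMIs in 10 injured oligodendrocytes (4.34 CPM, 6.01-fold higher against the floor). Injured NFOs held 3 *Igf1* UMIs in 3 barcodes, and there was always 1 UMI per barcode. The 3 NFOs carried 29 macrophage UMIs, or 3012 CPM against 596 CPM in the other injured NFOs, and the 10 oligodendrocytes 500 CPM against 285 CPM. A like share of barcodes held a macrophage UMI in both (8 of 10 with *Igf1* and 228 of 283 without), and the part of such RNA in these UMIs was not tested. *Lif* and *Bdnf* held 0 UMIs in all 6 classes. A count of 0 allows up to 0.723 CPM in uninjured and 1.30 CPM in injured oligodendrocytes, but only 17.5 and 25.5 CPM in OPCs and 31.9 and 8.53 CPM in NFOs, so expression below these limits was not detectable at this depth.

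The 4 genes with at least 20 UMIs were also counted between types. Between OPCs and oligodendrocytes, 1 was at least 2-fold higher in OPCs (*Vegfa*) and 3 lower (*Il33*, *Pdgfa* and *Fgf1*) in each library, where 24.1% of all genes were higher and 19.4% lower before ONC, and 23.7% and 22.3% after. The uninjured *Fgf1* value rests on 4 OPC UMIs (ratio 0.354, 0.0957 to 0.916). Its direction turned to 1.87 (0.209 to 7.96) thinned to 500 UMIs, and its interval spans 1 against oligodendrocytes under 8000 UMIs (0.408, 0.109 to 1.08). Between NFOs and oligodendrocytes none of the 4 was higher, where 21.4% of genes were before ONC and 16% after. In that comparison 3 were lower in the uninjured library and 2 (*Il33* and *Fgf1*) in the injured library, where 26.9% and 20.5% of all genes were lower. The OPC and NFO comparisons of a library share its oligodendrocytes. The 4 genes were seen together in 11 of the 203 uninjured and 11 of the 84 injured deep oligodendrocytes. Singly, *Il33*, *Pdgfa*, *Vegfa* and *Fgf1* were in 46.3%, 96.1%, 21.7% and 52.2% of these uninjured barcodes. In the injured ones, which were deeper, the shares were 92.9%, 100%, 23.8% and 77.4%. The joint counts were not tested against these shares.

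Over the 6 classes, the genes whose levels followed *Il33* most closely by Pearson's r of log2(CPM + 10) were *Bnip3l* (0.997), a mitophagy receptor, 1110032A03Rik (0.995), *Erbin* (0.995), *Cyb5r1* (0.992) and *Map4* (0.992), among 9153 genes. *Erbin* had 499 and 1215 CPM in uninjured and injured oligodendrocytes and 53.1 to 105 CPM in the other classes. For *Pdgfa* they were *Ppp2r3a*, *Sec23b*, *St18*, *Arhgef2* and *Tppp* (0.989 to 0.997), for *Vegfa* *Med13l*, *Phlpp2*, *Birc2*, *Pigm* and *Mmp16* (0.987 to 0.994) and for *Fgf1* AI504432, *Tnni1*, *Etnk1*, *Atp6ap2* and *Cecr2* (0.992 to 0.9999). With 6 points that share 2 libraries and 3 depths, these values only describe a like order of levels.

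The receptors through which these factors act were unevenly found. For *Il33*, *Il1rl1* held 0 UMIs in all 6 classes while the accessory chain *Il1rap* was present in oligodendrocytes at 201 and 182 CPM (ratio 0.909, 0.806 to 1.02). For *Pdgfa*, *Pdgfra* held 2142 and 961 CPM in OPCs (367 and 113 UMIs, ratio 0.449, 0.360 to 0.555), but the authors typed OPCs by it. For *Vegfa*, *Nrp2* in oligodendrocytes was at 20.5 and 37.4 CPM (ratio 1.82, 1.33 to 2.49), while *Kdr* and *Flt1*, the receptors of vessels, held 22 UMIs each in uninjured oligodendrocytes and 1 and 9 in injured ones. The 6 endothelial markers were lower in the same class (101 and 14 UMIs, 24.3 and 6.08 CPM, 3 of 4 measured at least 2-fold lower). This list includes *Kdr* and *Flt1*, so it is partly the same counts. The 8 astrocyte markers were also lower (153 and 70.4 CPM, 3 of 6 measured at least 2-fold lower). The part of RNA from either cell type was not tested. For *Fgf1*, *Fgfr2* was at 288 and 182 CPM in oligodendrocytes (ratio 0.630, 0.563 to 0.705), the type with most *Fgf1*. It was at 8.50 to 11.7 CPM in the other classes. *Fgfrl1*, a receptor without a kinase, was at 146 and 323 CPM in OPCs (ratio 2.21, 1.30 to 3.83). For *Lif*, *Lifr* and *Il6st* were at 76.6 and 55.9 CPM in uninjured and 68.6 and 77.3 CPM in injured oligodendrocytes, and *Cntfr*, which binds the related factor CNTF, at 19.8 and 70.8 CPM (ratio 3.58, 2.73 to 4.73). For *Bdnf*, *Ntrk2* was at 665 and 349 CPM in OPCs (ratio 0.524, 0.357 to 0.755) and at 7.47 and 7.82 CPM in oligodendrocytes, and *Sort1* at 247 and 313 CPM in oligodendrocytes. For *Igf1*, *Igf1r* was lower in injured oligodendrocytes (91.1 and 40.8 CPM, ratio 0.448, 0.354 to 0.563), *Igf2r* higher (15.9 and 32.1 CPM, ratio 2.02, 1.43 to 2.86) and *Insr* at a ratio of 0.850 (0.647 to 1.11). In all, 22 of 36 receptor genes had at least 20 UMIs in oligodendrocytes, 3 of them at least 2-fold higher and 2 lower, where 7.72% and 5.69% of all genes were, with a median ratio of 1.17 against 1.03 over all genes. With so few genes these counts are a description.

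The relatives of the 8 genes went in both directions. Of 53 further ligands of these families and other trophic factors, 13 had at least 20 UMIs in oligodendrocytes, 4 at least 2-fold higher and 4 lower after ONC, where 7.72% and 5.69% of all genes were. Their median ratio was 1.29, against 1.03 over all genes. Within the IL-1 family, *Il18* went against *Il33* (100 and 34.7 CPM, ratio 0.347, 0.270 to 0.442), and *Il1b*, a cytokine of activated macrophages, held 5 and 21 UMIs (ratio 7.57, 2.78 to 25.7). *Pdgfc* was at 10.6 and 3.47 CPM (ratio 0.328, 0.133 to 0.704). *Vegfb* went against *Vegfa* (23.1 and 59.9 CPM, ratio 2.59, 1.98 to 3.40), and *Fgf22* was at 9.64 and 20.4 CPM (ratio 2.12, 1.36 to 3.31). *Nrtn*, a GDNF family ligand, was at 28.9 and 119 CPM (ratio 4.13, 3.32 to 5.16), *Csf1*, the growth factor of microglia and macrophages, at 145 and 192 CPM (ratio 1.32, 1.17 to 1.50) and the growth factor *Ptn* at 852 and 443 CPM (ratio 0.520, 0.485 to 0.558). In NFOs, *Bmp4* was at 329 and 566 CPM (ratio 1.72, 1.17 to 2.59) and *Ptn* at 669 and 253 CPM (ratio 0.378, 0.271 to 0.531). In uninjured deep oligodendrocytes *Nrtn* was at 54.6 CPM in barcodes with an *Il33* UMI and 17.7 CPM in those without (ratio 3.08, 1.89 to 5.15). Other ligands and receptors split this way went both ways. *Fgfr2* was higher (1.30, 1.11 to 1.52), and *Csf1* (0.734, 0.572 to 0.937) and *Tgfa* (0.658, 0.495 to 0.868) were lower. For *Il1rap*, *Sort1*, *Lifr* and *Ptn* the intervals span 1.

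**Figure D5:**
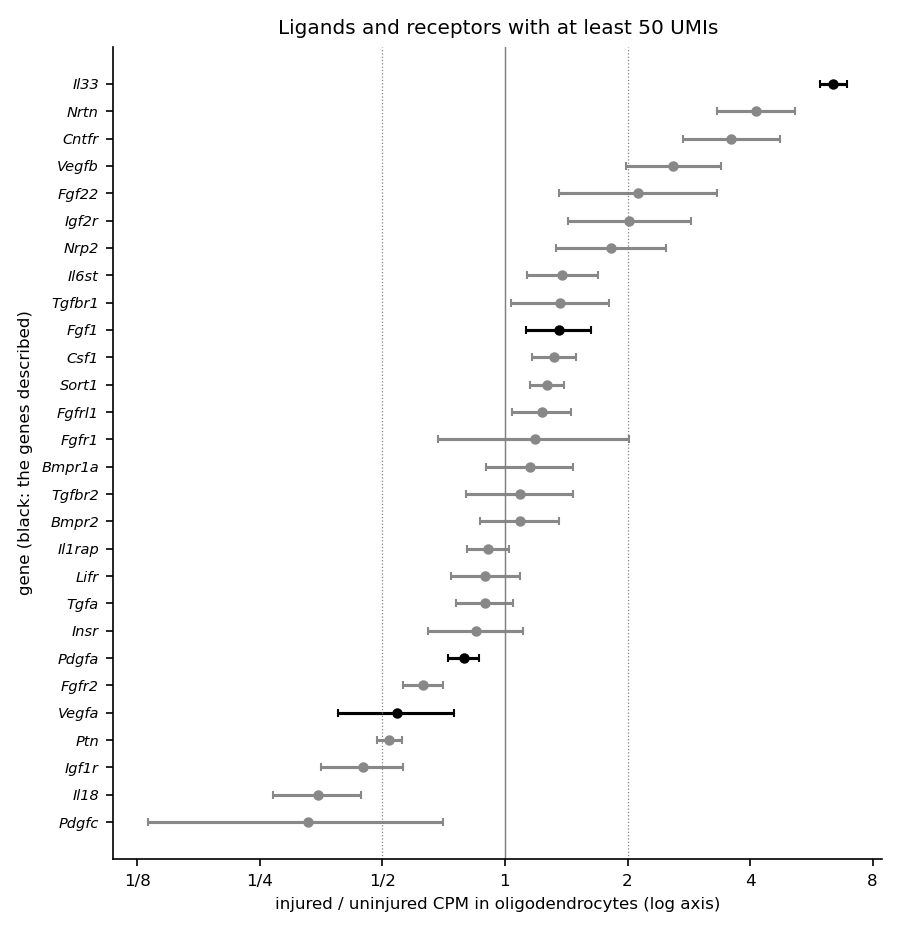
Ratio of injured to uninjured CPM in oligodendrocytes (x, log axis) for the 28 ligand and receptor genes with at least 50 UMIs (y), the genes described first in black; bars are exact conditional 95% intervals, the solid line marks 1 and the dotted lines 2-fold. *Il33* (6.41), *Nrtn* (4.13) and *Cntfr* (3.58) are the highest, and *Igf1r* (0.448), *Il18* (0.347) and *Pdgfc* (0.328) the lowest.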

How the data were processed

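scRNA-seq libraries of uninjured and injured optic nerve (5 nerves each, 1 library per condition, 6000 cells loaded) were analysed. Per the submitters' processing notes, reads were processed with bcl2fastq 2.17.1.14 and Cell Ranger 1.3 (mm10) and normalized in Seurat 4.0.3. The authors deposited natural log values, ln(1 + 10000 × UMIs / total UMIs) per barcode, for their OPC, NFO and oligodendrocyte barcodes, after limits on mitochondrial share, genes and UMIs and a draw of equal cell numbers per library, and the table of both libraries together was not used. UMIs were recovered by undoing the log and dividing by each barcode's smallest value above 0, and were whole within 0.001 in 100% of 1369 barcodes. Doublets were left as the authors filtered them, and other cell types were not analysed here.

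UMIs were summed by type and library (total depth 4414834 and 2771797 UMIs) and scaled to CPM. Intervals are exact 95% Poisson (CPM), Clopper-Pearson (shares) and conditional binomial (ratios). A class with 0 UMIs was set at a floor of 3 for the level it allows and for fold values against it, which are not exact lower limits. A gene counted as past the fold at 2-fold or more, among genes with at least 20 UMIs in both classes together. With 1 library per condition no p-value was computed. The 8 genes, the family lists, the depth bands and the tests were chosen with earlier results of these data known. From the lists, the 3 genes with most UMIs and those past the fold with at least 50 UMIs were named, at most 4 per list. Recovery and intervals were tested on simulated data. Counts for the intervals were drawn from a Poisson model, which the intervals assume, so this test does not cover spread between barcodes beyond counting. Alternatives were mean CPM over barcodes, thinning to 500 UMIs, depth limits, filters on 500 genes and 10% mitochondrial UMIs, on *Malat1* and on macrophage UMIs, TMM factors, leaving out the top barcode, and minima of 10 and 50 UMIs, and, added after seeing the data, thinning to 8000 UMIs and leaving out the top barcode of each class. Coordinates are from GENCODE vM21 and promoter sequences from RefSeq (GRCm38.p6), where all 3 genes shown were matched. The scripts ran in Python 3.11.15 with numpy 2.4.6, pandas 2.3.3 and scipy 1.17.1.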

Additional observations from a re-analysis of the deposited data

Results flagged for a closer look

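The *Pdgfa* ratios after ONC in NFOs and in oligodendrocytes lay on opposite sides of 1. The ratio of injured to uninjured CPM was 1.78 in NFOs and 0.792 in oligodendrocytes, so the former was 2.25 times the latter (approximate 95% counting interval 1.27 to 3.96). With 1 library per condition the difference was not tested. The NFO ratio rests on 14 uninjured UMIs and was 1.40 (0.777 to 2.69) without the barcode with most *Pdgfa* UMIs, 1.70 (0.894 to 3.57) without that of each library and 1.17 by mean CPM over barcodes. Both of these intervals span 1.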

How the results depend on the processing

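No paired analysis was possible because each condition has 1 library. Of 214 values recomputed under an alternative, 171 stayed within the counting interval of the value reported (for the mean NE, its direction; for counts, within 1.5 times). *Il33* in oligodendrocytes stayed over 2-fold higher after ONC in all ratios among these alternatives (2.72 to 6.66). Smaller ratios were seen in *Malat1*-poor barcodes (2.07, 1.28 to 3.47) and from 3000 to under 8000 UMIs (2.42, 1.80 to 3.21), with intervals that reach below 2. The *Il33* ratio was 3.94 by mean CPM over barcodes, 3.87 thinned to 500 UMIs, 2.72 in barcodes under 8000 UMIs and 5.71 thinned to 8000 UMIs. The *Pdgfa* ratio in oligodendrocytes was 0.606, 0.710 and 0.667 under the first 3 of these, the *Fgf1* ratio 2.40, 4.11 and 2.43, and the *Vegfa* ratio 0.314 by mean CPM, 0.204 thinned to 500 UMIs and 0.989 thinned to 8000 UMIs. *Pdgfa* in NFOs was 6.30 thinned to 500 UMIs, on 1 uninjured UMI. *Vegfa* in OPCs after ONC was 0.504 by mean CPM, 0.213 without the top barcode and 0.355 without that of each library.

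Between types in the uninjured library, the OPC ratio of *Vegfa* was 5.17 by mean CPM, 5.49 against oligodendrocytes under 8000 UMIs, 5.40 with TMM factors and 4.81 without the top barcode. Thinned to 500 UMIs, the OPC ratio was 0.318 for *Pdgfa*, and for *Fgf1* it turned from 0.354 to 1.87, on 2 OPC UMIs. The NFO ratio of *Pdgfa* was 0.142 after that thinning, and the NFO difference of *Vegfa* was -0.0898 in mean NE. In the injured library the OPC ratio of *Vegfa* was 8.31 by mean CPM, 25.9 thinned to 500 UMIs, 8.85 under 8000 UMIs and 3.14 without the top barcode. There the NFO ratio of *Pdgfa* was 1.16, 1.26, 1.19 and 0.672 under the same settings, and that of *Vegfa* 2.93 thinned, with a difference of -0.00396 in mean NE. With a minimum of 10 UMIs, 1 gene was 2-fold lower in injured OPCs (*Pdgfa*) and 2 were 2-fold higher in injured oligodendrocytes (*Igf1* joined). The causes were not tested. Few UMIs limit OPCs and NFOs most.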
